A study of Rattus norvegicus with 6 samples.

Results

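The 10 genes described here are members and targets of the Hippo pathway, chosen by name and matched exactly to the gene symbols of the deposited tables, which hold 20653 genes. They are the kinase genes Lats1 and Lats2, the co-activator genes Yap1 and Wwtr1, the transcription factor genes Tead1 and Tead3, and the target genes Ccn1, Ccn2, Ankrd1 and Amotl2. Transcripts were measured by RNA sequencing in primary mesenchymal stem cells of rat nasal mucosa, with genotype SD in the labels, in 3 libraries of NPS-EMSC and 3 libraries of EMSC. By the series title, NPS-EMSC overexpress neuropeptide S, a short secreted peptide. The labels do not say how the gene was delivered, whether EMSC received a control vector, how old the animals were or whether replicates came from separate cultures, so p-values measure only the spread between these libraries, which may be technical. The comparison asks which transcripts of the pathway differ between both kinds of cells.

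In the Hippo pathway, the MST kinases and their adaptor Sav1 activate the LATS kinases, which phosphorylate the co-activators YAP (Yap1) and TAZ (Wwtr1) and so keep them out of the nucleus or mark them for breakdown. Unphosphorylated YAP and TAZ enter the nucleus, bind the DNA-binding TEAD factors and switch on genes such as Ccn1, Ccn2 and Ankrd1. In mesenchymal cells the pathway is known for reading matrix stiffness, cell shape and crowding. Transcript levels do not show the phosphorylation or the location of YAP and TAZ.

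Nps, which encodes the precursor of this peptide, had 93566, 77014 and 85916 reads in NPS-EMSC and 0, 0 and 10 reads in EMSC, as the labels say. The libraries held 39082245 to 39511976 counted reads in NPS-EMSC and 39314098 to 40261205 in EMSC. All 7 mesenchymal stem cell markers on the list used here had reads in every library, with a summed level of 3730 to 3807 CPM (read counts relative to the TMM-scaled library total) in NPS-EMSC and 2072 to 2196 CPM in EMSC. Of these 7 markers 6 were higher in NPS-EMSC, and Vcam1, named after its values were seen, was lower, at 2.72 ± 0.382 CPM in NPS-EMSC and 16.0 ± 0.515 CPM in EMSC (SD, n = 3). Smooth muscle and myofibroblast markers moved with the groups, with 7 of 8 higher in NPS-EMSC. They summed to 4710 to 4903 CPM there, against 1362 to 1506 CPM in EMSC. By the test given below, 29.7% of all genes tested were higher and 29.5% lower in NPS-EMSC, the background for these marker counts. Leukocyte markers summed to 38.4 to 41.2 CPM in NPS-EMSC and 72.6 to 81.2 CPM in EMSC, with 5 of 6 tested markers lower and 1 higher, and Ptprc, which marks all leukocytes, had 0, 1 and 0 reads in NPS-EMSC and 33, 20 and 41 in EMSC. Epithelial markers summed to 10.1 to 13.2 CPM in NPS-EMSC and 4.18 to 4.93 CPM in EMSC, mostly from Krt8 and Krt18, with Krt5 and Krt14 at 0 in every NPS-EMSC library and Epcam at 0 in 2 libraries of each group. Endothelial markers summed to 2.29 to 2.98 CPM in NPS-EMSC and 2.67 to 3.11 CPM in EMSC, and Cdh5 was at 0 in every NPS-EMSC library and in 2 of 3 EMSC libraries. The part of these cell type markers in the results below was not tested, and in bulk RNA fewer cells of a type and less RNA per cell cannot be told apart.

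All 10 genes passed the filter on low counts. The target genes were all higher in NPS-EMSC, with Ccn2 far ahead, both co-activator genes were slightly lower, Tead3 and Lats2 were higher, Tead1 was slightly lower, and Lats1 did not pass the test. Altogether 6 of the 10 genes rose, 3 fell and 1 did not pass at an adjusted p under 0.05 in edgeR's quasi-likelihood test with Benjamini-Hochberg adjustment over all 14505 genes tested. Of all genes tested, 59.3% passed this test, 29.7% as higher and 29.5% as lower in NPS-EMSC. Only Ccn2 and Ankrd1 passed with a change of at least 2-fold, where 14.8% of all tested genes did. The median absolute log2 fold change was 0.38 over the 10 genes and 0.34 over all genes tested, so most of these changes were of ordinary size for this comparison. The signed median was 0.32 for the 10 genes and -0.0048 for all tested genes. In 9 of the 10 genes the CPM values of the 3 NPS-EMSC libraries did not overlap those of the 3 EMSC libraries, where 64.7% of all genes tested showed no overlap. Since the genes were picked with earlier results known, these shares describe them and single out nothing.

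**Figure D1:**
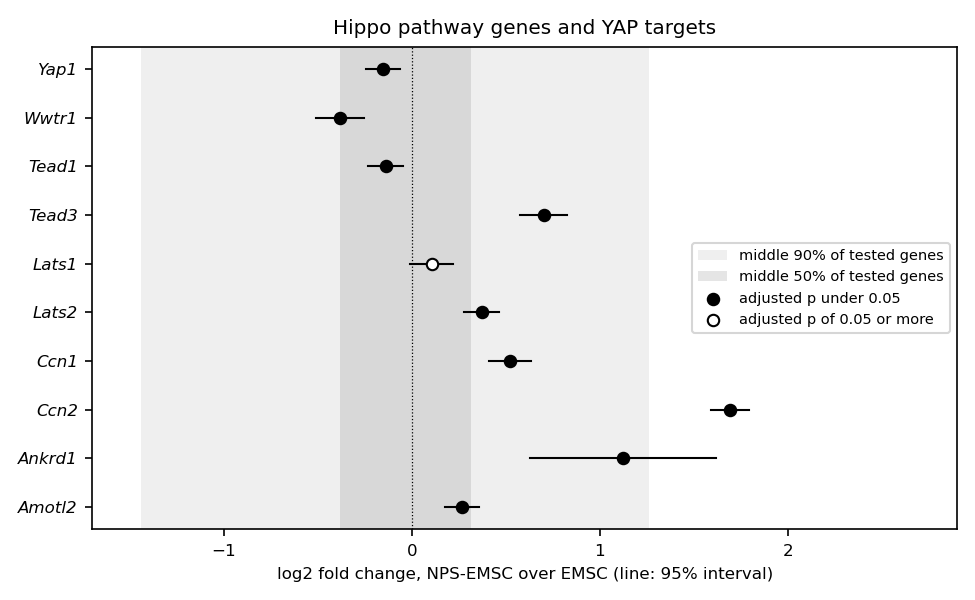
Log2 fold changes of the 10 genes, NPS-EMSC over EMSC, on the horizontal axis, with lines for the 95% intervals; filled circles passed the test. The bands hold the middle 90% of all tested genes, from -1.44 to 1.26, and the middle 50%, from -0.38 to 0.31; Ccn2 lies beyond the wider band at 1.69.

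Levels per transcript length are given in FPKM, the reads per kilobase relative to the total of counted reads. Fold changes come from TMM-scaled counts and so differ slightly from ratios of FPKM. In NPS-EMSC the order of the mean FPKM was Ccn2, Ccn1, Amotl2, Yap1, Lats2, Tead1, Tead3, Wwtr1, Lats1 and Ankrd1. Neighbours in that order did not overlap between libraries, except Tead3 at 30.5 to 33.3 FPKM and Wwtr1 at 28.9 to 32.4 FPKM. In EMSC the order was Ccn2, Ccn1, Amotl2, Yap1, Wwtr1, Tead1, Lats2, Tead3, Lats1 and Ankrd1, and the only overlapping neighbours were Wwtr1 at 39.5 to 41.0 FPKM and Tead1 at 38.4 to 40.6 FPKM. Lats2 therefore stood above Tead1 and Wwtr1 in NPS-EMSC and below both in EMSC. Within groups the FPKM values were tight for 9 of the genes, with a coefficient of variation of 1.61% to 6.63% in NPS-EMSC and 2.08% to 9.40% in EMSC. Ankrd1, the gene with the fewest reads, varied by 22.7% in NPS-EMSC and 27.2% in EMSC.

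**Figure D2:**
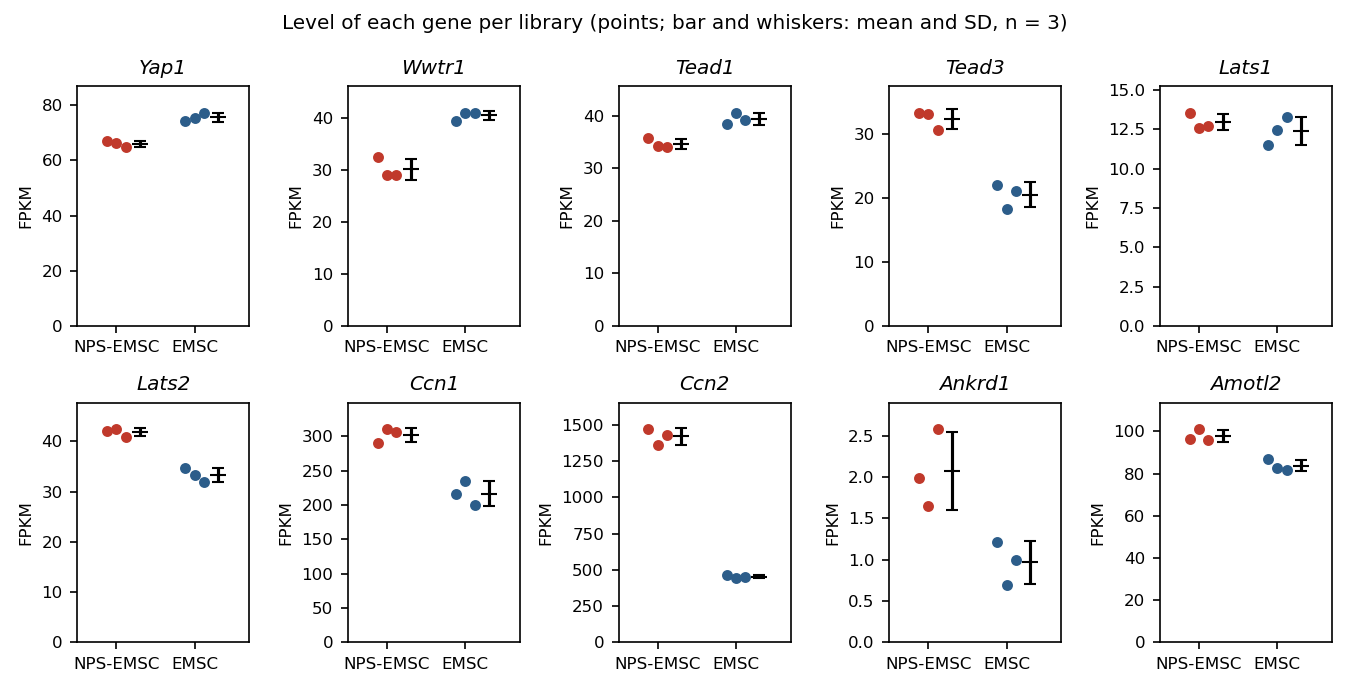
FPKM of each of the 10 genes (vertical axes, from 0) in the 3 NPS-EMSC and 3 EMSC libraries; points are libraries, the bar and whiskers are the mean and SD. Ccn2 lies at 1357 to 1470.1 FPKM in NPS-EMSC and 443 to 467 FPKM in EMSC, while the Lats1 values overlap.

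Ccn2 and Ccn1 encode secreted matricellular proteins (CTGF and CYR61) and are the most widely used readouts of YAP and TAZ activity, although TGF-β and serum response factor are also known to induce them. Ccn2 had 1470.1, 1357 and 1432 FPKM in the NPS-EMSC libraries, against 467, 443 and 451 FPKM in the EMSC libraries. The groups were far apart, since the lowest NPS-EMSC library lay well above the highest EMSC library. The gene rose 3.23-fold (log2 fold change 1.69, SE 0.05, edgeR adjusted p = 5.98e-20), and 3.19% of all genes tested had a larger increase. It was among the most abundant transcripts, with 0.317% to 0.343% of all counted reads in NPS-EMSC and 0.103% to 0.109% in EMSC. Of the smooth muscle markers given above, 7 of 8 were also higher in NPS-EMSC, where 29.7% of all tested genes were. Their median log2 fold change was 1.57, and that of Acta2, smooth muscle actin, was 2.38. A link between these markers and Ccn2 was not tested.

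Ccn1 had 289.6, 310.2 and 306 FPKM in NPS-EMSC, against 215, 235 and 199 FPKM in EMSC. Every NPS-EMSC library was above every EMSC library, by a smaller step than for Ccn2. Its increase was 1.44-fold (log2 fold change 0.52, SE 0.05, edgeR adjusted p = 1.27e-08). The ratio of Ccn2 to Ccn1 in FPKM was 5.08, 4.38 and 4.69 in NPS-EMSC and 2.17, 1.88 and 2.26 in EMSC, without overlap. On the log2 scale this ratio averaged 2.23 ± 0.11 in NPS-EMSC and 1.07 ± 0.14 in EMSC (SD, n = 3; difference 1.16, two-sided exact permutation p = 0.10). That p is the smallest that 3 against 3 libraries allow, and it is the same for all 5 ratios and shares given here, also after Benjamini-Hochberg adjustment over the 5.

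Ankrd1, a nuclear ankyrin repeat protein gene first known from heart muscle, was rare in these cells. It had 156, 129 and 204 reads in NPS-EMSC, against 98, 56 and 78 reads in EMSC, or 1.99, 1.65 and 2.58 FPKM against 1.22, 0.695 and 0.991 FPKM. The groups did not overlap, but the gap between them was smaller than the spread inside each. Ankrd1 rose 2.18-fold (log2 fold change 1.12, SE 0.24, edgeR adjusted p = 2.62e-04), with a 95% interval of 0.63 to 1.62 on the log2 scale. On log2(FPKM + 1) values the difference was 0.64, since a pseudocount of 1 is close to the gene's own level.

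Amotl2 encodes a member of the angiomotin family, which binds YAP and holds it at cell junctions, and is also a known YAP target. It had 96.6, 101 and 95.7 FPKM in NPS-EMSC, against 86.9, 82.6 and 81.8 FPKM in EMSC. The groups were separate and close together. The gene rose 1.20-fold (log2 fold change 0.27, SE 0.04, edgeR adjusted p = 1.02e-05), and 58.9% of all tested genes had a larger absolute change.

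TEAD factors bind the hexamer GGAATG, so the 250 bases before the start sites of the target genes are shown to let a reader see where this motif lies. The sequences are from RefSeq, build GRCr8, and are written along the gene's strand with matches in capitals (GGAATG, or CATTCC where the motif lies on the other strand). They cover chr1:22624615-22624864 on the minus strand for Ccn2, chr2:237225690-237225939 on the minus strand for Ccn1 and chr8:112182376-112182625 on the plus strand for Amotl2.
Ccn2: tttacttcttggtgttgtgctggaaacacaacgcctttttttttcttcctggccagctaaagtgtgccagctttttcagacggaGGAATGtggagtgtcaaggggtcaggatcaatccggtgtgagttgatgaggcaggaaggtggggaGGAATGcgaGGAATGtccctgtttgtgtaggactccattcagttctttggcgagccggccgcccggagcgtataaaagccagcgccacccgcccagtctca
Ccn1: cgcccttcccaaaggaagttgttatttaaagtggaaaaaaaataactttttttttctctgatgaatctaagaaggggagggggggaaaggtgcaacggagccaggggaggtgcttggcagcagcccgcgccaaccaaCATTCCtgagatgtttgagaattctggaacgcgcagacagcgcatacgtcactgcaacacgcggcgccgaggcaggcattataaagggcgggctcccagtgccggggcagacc
Amotl2: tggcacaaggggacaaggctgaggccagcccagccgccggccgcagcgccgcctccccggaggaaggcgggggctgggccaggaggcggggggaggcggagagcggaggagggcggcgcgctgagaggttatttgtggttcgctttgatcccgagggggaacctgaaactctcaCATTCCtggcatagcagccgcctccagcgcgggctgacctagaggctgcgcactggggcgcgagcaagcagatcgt
The Ccn2 window held 3 copies, all on the gene's strand, whose first bases lay 166, 101 and 92 bases before the start, and none of the 3 overlapped another. Ccn1 held 1 copy on the other strand, 113 to 108 bases before the start, and Amotl2 held 1 copy on the other strand, 76 to 71 bases before it. Of 33469 rat promoter windows of the same length, 12.1% held at least 1 copy on either strand and 0.0807% (27 windows) held at least 3. Among the other genes described here with an entry in the table, Yap1 held 1 copy and Wwtr1, Tead3 and Lats1 held 0. The AP-1 motif TGANTCA and the CArG box of serum response factor, searched on both strands, had 0 matches in the 7 windows. Of all windows, 6.34% and 1.5% held them. Motifs this rare are mostly absent from 7 windows of 250 bases, so these 0 matches carry no information on either factor. A match is a run of letters and not a measured binding site.

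**Figure D3:**
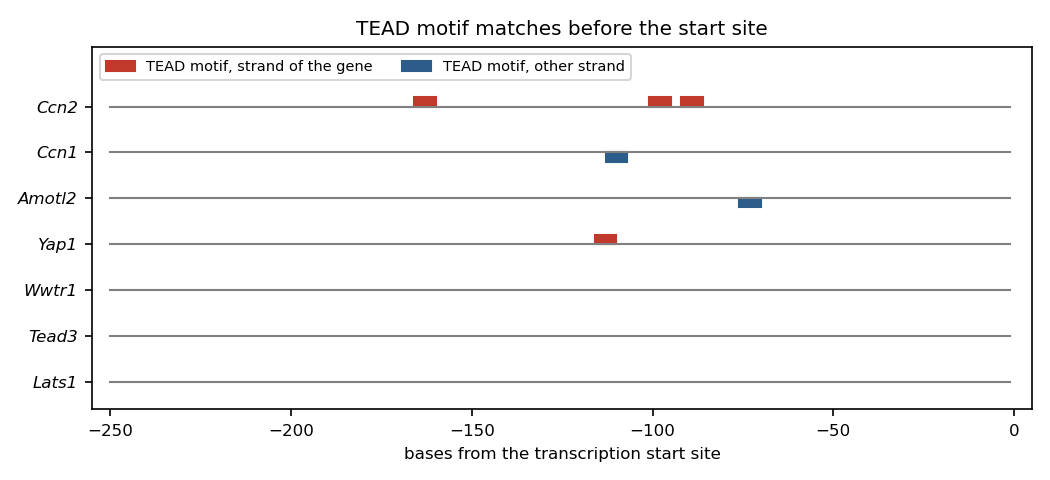
Matches to the TEAD motif in the 250 bases before the start sites of 7 of the 10 genes; the horizontal axis gives bases from the start site, red blocks lie on the gene's strand and blue blocks on the other. Ccn2 has 3 matches, Ccn1, Amotl2 and Yap1 have 1 each and the other 3 genes have 0.

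Both co-activator genes fell, while the 4 target genes described above rose. Yap1 encodes YAP, the main effector of the pathway. It had 67.0, 66.1 and 64.9 FPKM in NPS-EMSC, against 74.2, 75.4 and 77.3 FPKM in EMSC. All NPS-EMSC libraries lay below all EMSC libraries. The decrease was 1.11-fold (log2 fold change -0.15, SE 0.04, edgeR adjusted p = 0.00412).

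Wwtr1 encodes TAZ, the paralogue of YAP. It had 32.4, 29.0 and 28.9 FPKM in NPS-EMSC, against 39.5, 41.0 and 41.0 FPKM in EMSC, again without overlap. Its decrease was 1.30-fold (log2 fold change -0.38, SE 0.06, edgeR adjusted p = 7.23e-06). Per length, Wwtr1 stood at 0.484, 0.438 and 0.446 of the Yap1 level in NPS-EMSC and at 0.532, 0.544 and 0.530 of it in EMSC. On the log2 scale the ratio of Wwtr1 to Yap1 averaged -1.13 ± 0.08 in NPS-EMSC and -0.90 ± 0.02 in EMSC (SD, n = 3; difference -0.23, exact permutation p = 0.10). Yap1 was thus the more abundant transcript in all 6 libraries.

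The TEAD factors, which carry YAP and TAZ to DNA, changed in opposite directions. Tead3 had 33.3, 33.1 and 30.5 FPKM in NPS-EMSC, against 22.0, 18.3 and 21.1 FPKM in EMSC. The groups were well separated, and Tead3 rose 1.63-fold (log2 fold change 0.70, SE 0.06, edgeR adjusted p = 3.25e-10). Tead1 had 35.8, 34.4 and 34.0 FPKM in NPS-EMSC, against 38.4, 40.6 and 39.3 FPKM in EMSC. It fell 1.10-fold (log2 fold change -0.14, SE 0.05, edgeR adjusted p = 0.0106), the smallest change that passed among the 10 genes. The call for Tead1 rested on single libraries: the adjusted p was 0.0754 when NPS-EMSC replicate 3 was left out and 0.0527 when EMSC replicate 2 was.

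Tead1 and Tead3 made up nearly all TEAD transcripts per length. The Tead1 share of the summed Tead1 to Tead4 FPKM was 49.4%, 48.9% and 50.2% in NPS-EMSC, against 59.6%, 64.9% and 61.3% in EMSC. The Tead3 share was 46.0%, 47.0% and 45.1% in NPS-EMSC, against 34.2%, 29.3% and 33.0% in EMSC. Per length, the family thus held nearly equal parts of both in NPS-EMSC and more Tead1 in EMSC. In CPM, Tead1 was far ahead of Tead3 in both groups. Their means were 370 against 83.9 CPM in NPS-EMSC and 408 against 51.6 CPM in EMSC. The mean shares of Tead1 were 49.5% ± 0.655 in NPS-EMSC and 62.0% ± 2.70 in EMSC (SD, n = 3; difference -12.5 percentage points, exact permutation p = 0.10), and those of Tead3 differed by 13.9 points (exact permutation p = 0.10). Because Tead1 has the longer transcript by the length implied in the deposited FPKM (10491 against 2558 bases for Tead3), shares of CPM, which are not per length, differed less, by -6.11 and 7.16 points.

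Tead2 and Tead4 were minor members of the family. Tead4 had a mean of 1.02 ± 0.0988 FPKM in NPS-EMSC and 1.90 ± 0.0376 FPKM in EMSC (SD, n = 3) and fell with a log2 fold change of -0.85 (SE 0.12, edgeR adjusted p = 1.30e-06). Tead2 averaged 2.11 ± 0.231 FPKM in NPS-EMSC and 1.85 ± 0.211 FPKM in EMSC and did not pass (log2 fold change 0.23, 95% interval -0.14 to 0.60). The summed level of all 4 genes was 70.2 ± 2.34 FPKM in NPS-EMSC and 63.7 ± 0.946 FPKM in EMSC (exact permutation p = 0.10).

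**Figure D4:**
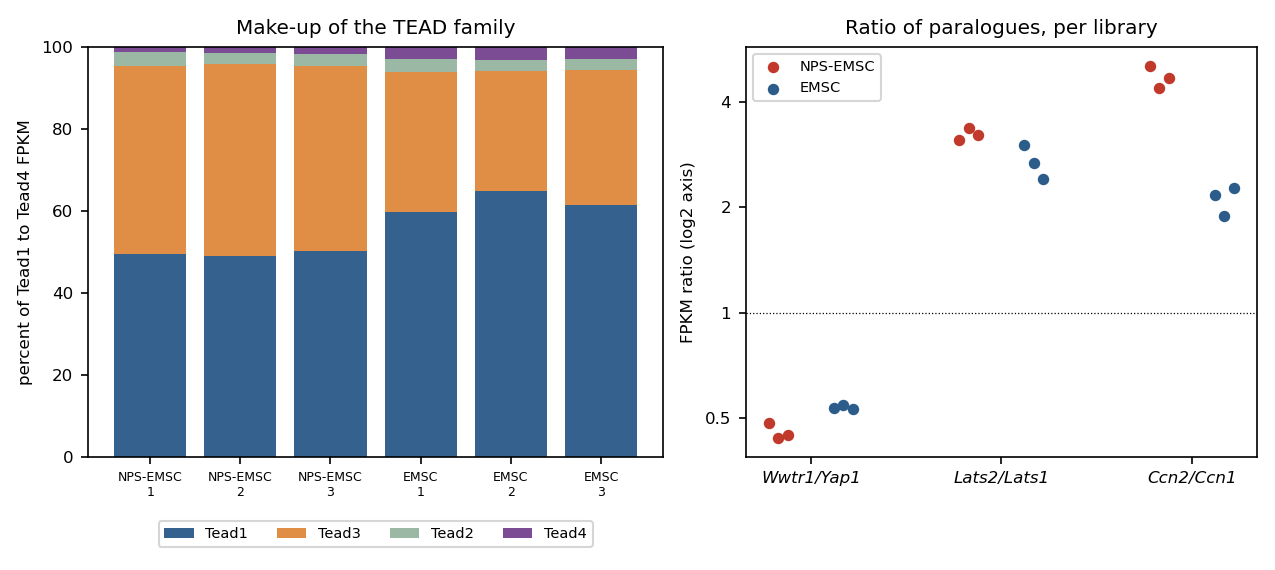
Left, the percent of the summed Tead1 to Tead4 FPKM held by each gene, 1 bar per library; right, FPKM ratios of paralogues per library on a log2 axis. The Tead3 share lies at 45.1% to 47.0% in NPS-EMSC and 29.3% to 34.2% in EMSC, and none of the 3 ratios overlaps between the groups.

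Vestigial-like proteins bind TEAD factors, and some of them compete with YAP and TAZ. Vgll3 stood out among them by its level, with 161, 153 and 158 FPKM in NPS-EMSC, against 78.8, 72.7 and 71.8 FPKM in EMSC. It rose 2.18-fold (log2 fold change 1.12, SE 0.05, edgeR adjusted p = 1.16e-16). Vgll3 thus had more FPKM than Yap1 in every NPS-EMSC library and in 1 of 3 EMSC libraries. Vgll4, known as a repressor of TEAD activity, rose 1.31-fold to 12.9 ± 0.127 FPKM in NPS-EMSC, against 10.1 ± 0.0499 FPKM in EMSC. Vgll2 had 1 to 24 reads per library and did not pass.

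The LATS kinases, which phosphorylate YAP and TAZ, differed between the paralogues. Lats2, itself a known YAP target that feeds back on the pathway, had 42.1, 42.4 and 40.9 FPKM in NPS-EMSC, against 34.7, 33.3 and 32.0 FPKM in EMSC. The groups did not overlap, and Lats2 rose 1.29-fold (log2 fold change 0.37, SE 0.05, edgeR adjusted p = 1.12e-07). Lats1 had 13.6, 12.6 and 12.7 FPKM in NPS-EMSC, against 11.5, 12.5 and 13.3 FPKM in EMSC, with overlapping groups. Its log2 fold change was 0.11 (SE 0.06, edgeR adjusted p = 0.105), with a 95% interval of -0.0089 to 0.22. Without EMSC replicate 3, the library with the most Lats1 in its group, the value was 0.15 (adjusted p = 0.0362).

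Lats2 was the more abundant kinase transcript per length, at 3.11, 3.38 and 3.21 times Lats1 in NPS-EMSC and 3.02, 2.67 and 2.41 times in EMSC. On the log2 scale this ratio averaged 1.69 ± 0.06 in NPS-EMSC and 1.43 ± 0.16 in EMSC (SD, n = 3; difference 0.26, exact permutation p = 0.10). The highest EMSC library lay just below the lowest NPS-EMSC library, so the 2 groups barely separated.

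The other genes of the pathway were described by lists of their roles. Of 32 listed genes outside the 10, 31 had a row and were tested, 12 rose, 10 fell and 9 did not pass, with a median log2 fold change of 0.04 against -0.0048 over all genes tested. Thus 71.0% of them passed, where 59.3% of all tested genes did.

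The list of MST kinases and adaptors, which start the kinase cascade, also held the other kinase genes Taok1, Taok2, Taok3 and Map4k4. Of its 7 genes, 4 rose (Stk3, Stk4, Sav1 and Map4k4) and 0 fell, while Taok1, Taok2 and Taok3 did not pass. The share that passed was 57.1%, close to the 59.3% of all tested genes, of which 29.7% rose and 29.5% fell. Stk4, the MST1 kinase gene, had 9.09, 8.12 and 8.19 FPKM in NPS-EMSC, against 4.67, 4.66 and 4.81 FPKM in EMSC, and rose 1.85-fold (log2 fold change 0.89, SE 0.07, edgeR adjusted p = 2.34e-11). Sav1, the scaffold of the MST kinases, rose 1.61-fold to 73.3 ± 2.44 FPKM in NPS-EMSC, against 46.9 ± 3.45 FPKM in EMSC. Map4k4, a kinase gene that can act in parallel with MST on LATS, rose 1.30-fold.

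Of the 4 genes of LATS partners and NDR kinases, 2 rose and 1 fell, where 29.7% of all tested genes rose and 29.5% fell. The NDR kinases are close relatives of LATS, and their genes moved apart: Stk38l (NDR2) rose 2.82-fold, to 21.0, 16.7 and 20.7 FPKM in NPS-EMSC, against 7.07, 6.80 and 7.53 FPKM in EMSC. Stk38 (NDR1) fell to 11.8 ± 0.338 FPKM in NPS-EMSC, against 18.2 ± 1.06 FPKM in EMSC (log2 fold change -0.57, SE 0.06). Mob1a, the co-activator of LATS and NDR kinases, rose 1.20-fold.

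Among 7 upstream regulators, 5 fell and 1 rose, where 29.5% of all tested genes fell and 29.7% rose. Fat4, a giant protocadherin whose fly relative Fat acts upstream of the pathway, had 10.3, 8.70 and 9.03 FPKM in NPS-EMSC, against 28.9, 34.3 and 34.5 FPKM in EMSC. It fell 3.38-fold (log2 fold change -1.76, SE 0.09, edgeR adjusted p = 5.28e-08), one of the larger changes in these lists. Frmd6, a membrane scaffold gene, fell 1.36-fold, while Nf2, which encodes the scaffold merlin, rose 1.41-fold. Named after its values were seen because of its size, Wwc1 (KIBRA) fell (edgeR adjusted p = 8.52e-04), but on only 15, 8 and 4 reads in NPS-EMSC, against 41, 50 and 41 reads in EMSC.

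Of 8 genes for retention and turnover of YAP and TAZ and for LATS inhibitors, 3 rose and 3 fell. Among all tested genes, 29.7% rose and 29.5% fell. Amotl1, a second angiomotin gene, rose 1.32-fold, to 27.1 ± 1.27 FPKM in NPS-EMSC, against 21.2 ± 0.235 FPKM in EMSC. Csnk1d, a casein kinase gene that primes YAP for breakdown, rose 1.17-fold. Ajuba, whose product inhibits LATS, fell 1.25-fold. None of the changes in this list reached 2-fold (0 of 8), where 14.8% of all tested genes passed with such a change.

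A published target signature of YAP and TAZ, drawn from human cancer data, gave a divided picture. Outside the 10 genes, 7 of its 17 genes rose, 8 fell and 2 did not pass, with a median log2 fold change of -0.05. The signature also holds 5 of the 10 genes (Ccn1, Ccn2, Ankrd1, Amotl2 and Lats2), which all rose, and with them 12 of 22 genes rose and 8 fell, with a median of 0.23. These 5 genes were picked with earlier results known, so the shift of the median with them singles out nothing. Of all tested genes, 29.7% rose and 29.5% fell. The share of the 17 that passed was 88.2%, where 59.3% of all tested genes did, and the members went both ways. Of the 17, 3 passed with changes of at least 2-fold, where 14.8% of all tested genes did, and all 3 rose.

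Igfbp3, which encodes a carrier of insulin-like growth factors, had 49.8, 57.9 and 54.8 FPKM in NPS-EMSC, against 4.20, 6.56 and 3.83 FPKM in EMSC. It rose 11.4-fold (log2 fold change 3.51, SE 0.23, edgeR adjusted p = 1.59e-04). F3, the gene of tissue factor, which starts blood clotting, had 495, 476 and 501 FPKM in NPS-EMSC, against 88.0, 84.8 and 65.1 FPKM in EMSC. F3 rose 6.38-fold (log2 fold change 2.67, SE 0.12), with the lowest EMSC value in replicate 3. Nt5e, the CD73 ectonucleotidase and also a marker of mesenchymal stem cells, had 22.4, 20.7 and 21.4 FPKM in NPS-EMSC, against 4.48, 4.90 and 5.51 FPKM in EMSC, and rose 4.45-fold. In all 3 genes every NPS-EMSC library lay far above every EMSC library.

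The other rising genes of the signature changed less. Asap1, a gene of an Arf GTPase-activating protein, rose 1.60-fold, and Nuak2, Gadd45a and Ccdc80 rose 1.18-fold, 1.17-fold and 1.17-fold. On the falling side, Dock5, a gene of a Rac exchange factor, had a log2 fold change of -0.74 (SE 0.05). The forkhead factor gene Foxf2 fell with one of -0.73 (SE 0.07). Rbms3, an RNA-binding protein gene, fell with one of -0.47 (SE 0.06). Ptpn14, a phosphatase gene whose product binds and restrains YAP, fell with one of -0.65 (SE 0.05). Its level was 8.46 ± 0.354 FPKM in NPS-EMSC and 13.7 ± 0.309 FPKM in EMSC (SD, n = 3).

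**Figure D5:**
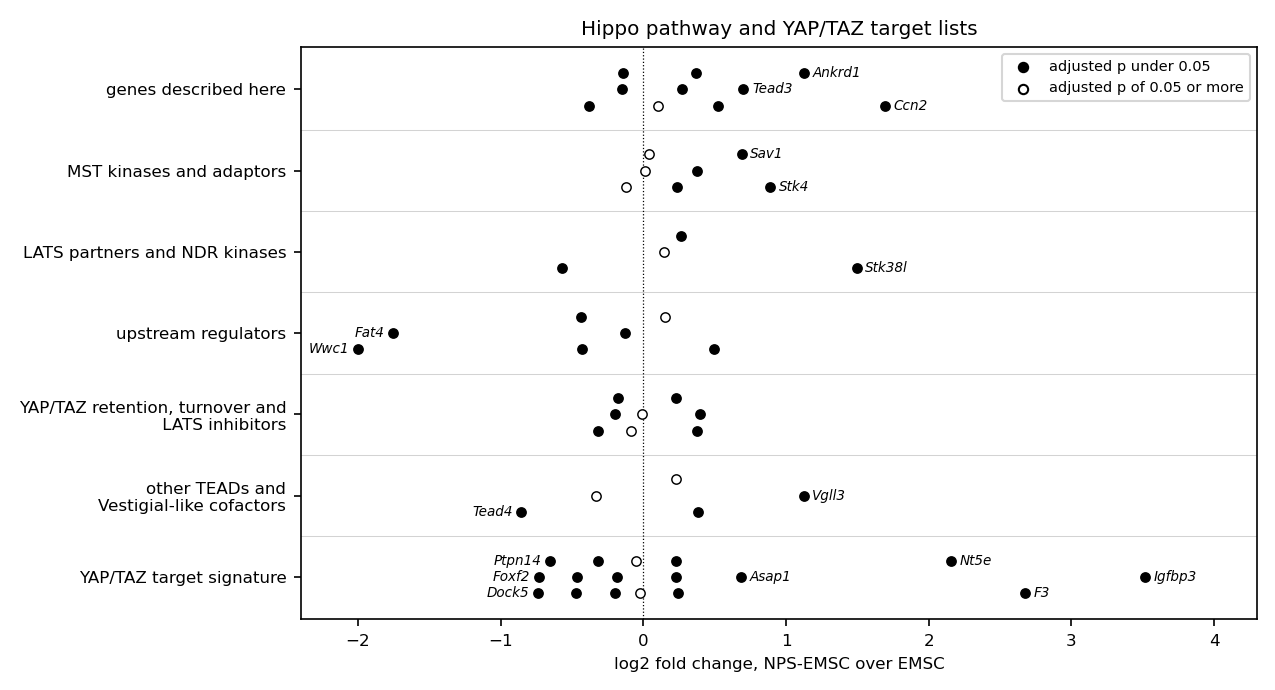
Log2 fold changes, NPS-EMSC over EMSC, of the 10 genes and of the lists of other Hippo pathway genes and signature targets; 1 circle per gene, filled where the test was passed, with names beyond 0.6 in either direction. Igfbp3 at 3.51, F3 at 2.67 and Nt5e at 2.16 lie apart from the rest of the signature, which falls on both sides of 0.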

How the data were processed

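RNA sequencing of 6 libraries was analysed. Per the submitters' processing notes, R 3.2.0, DESeq, StringTie, HTSeq, HISAT2 and fastp were used, with no role or order given; for genome build, annotation and strand setting, the sources used here give nothing. The authors deposited raw read counts per gene, and FPKM of the same 20653 genes. Counts divided by FPKM and column totals gave 1 fixed length per gene to within 0.1 percent, so the FPKM table is the counts rescaled.

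Counts were tested with edgeR 4.0.16 in R 4.3.3 (glmQLFit, robust, prior count 2; glmQLFTest), with TMM factors and filterByExpr (minimum count 10, minimum total 15), which left 14505 genes. Fold changes are on TMM-scaled counts, NPS-EMSC over EMSC, while FPKM are scaled by the totals. The SE was derived from F, as the absolute log2 change over its square root. Ratios and shares were compared by two-sided exact permutation tests. The edgeR procedure was also tested on simulated data, while the permutation tests were not.

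The 10 genes, the lists and the tests were chosen with earlier results of these data known. Named genes are Nps, the 10 genes, up to 3 called genes by smallest p of each role list, and of the signature the 6 with the smallest p plus those called against its more common direction. Of each marker list up to 2 genes with the highest mean CPM and markers at 0 were also eligible. Named outside this rule were Tead2, Vgll2, Stk3, Taok1, Taok2, Taok3, Fjx1, Myof, Tgfb2, Axl, Vcam1, Wwc1 and Wtip. Of the marker lists, 1 is not reported here. Alternatives were RLE and upper-quartile factors, DESeq2 1.42.0, voom of limma 3.58.1, other filters, log2 FPKM values with pseudocounts 1 and 0.1, an adjusted p under 0.01, the replicate number as a block, and leaving out each library. All 10 genes matched RefSeq symbols of GRCr8, and 7 had a promoter entry.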

Additional observations from a re-analysis of the deposited data

How the results depend on the processing

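Over 17 alternatives each, 8 of the 10 genes kept their direction and their side of the threshold. Tead1 kept its direction, but did not pass at an adjusted p under 0.01 (log2 fold change -0.14, adjusted p = 0.0106), and leaving out single libraries gave -0.17 to -0.11, with NPS-EMSC replicate 3 and EMSC replicate 2 each deciding the call. Lats1 ranged from 0.043 to 0.15 when single libraries were left out and passed without EMSC replicate 3; why was not tested. The log2 fold change of Ccn2 ranged from 1.64 to 1.73 and that of Ankrd1 from 0.64 to 1.31. The 10 genes held 6 or 7 higher and 2 or 3 lower calls under all alternatives, the other pathway genes 11 to 13 and 7 to 10, and the signature 6 or 7 and 8. The scalings moved the median of all tested genes by less than 0.1. Same-numbered libraries hardly deviated together (correlations of -0.05, 0.07 and 0.05 across genes), and NPS-EMSC replicate 1 correlated best with EMSC replicate 3 (0.09). The deviations are from means of only 3 libraries, so this check cannot tell whether same-numbered libraries were prepared together. With the replicate block 6 of the 10 genes were higher and 3 lower, and Lats1 had an adjusted p of 0.111; no call of the 10 genes changed. The sign-flip test of the ratios by replicate number gave p = 0.25 (exact), the smallest that 3 pairs allow. Depth limits Ankrd1, Tead2, Vgll2 and Wwc1, which had at most 204 reads in a library.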

Other observations

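The TEAD motif was also counted before the other listed genes. Of 12 signature genes with a promoter entry, 2 held GGAATG on either strand (Ptpn14, which fell, and Nuak2, which rose). Of 20 other pathway genes with an entry, 5 did. Among all rat promoter windows searched, 12.1% held at least 1 copy and 0.0807% at least 3. Wtip, a LIM protein gene of the LATS inhibitor group, held 3 copies, as many as Ccn2, and rose 1.30-fold (log2 fold change 0.38, SE 0.11, edgeR adjusted p = 0.00359); it was named after its values were seen. Igfbp3 and Nt5e, with the largest increases of the signature genes that have an entry, held 0.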
